A study of Mus musculus with 130 samples.

Results

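The genes described here are 34 genes of fatty acid oxidation and of the nuclear receptor PPARA, chosen by symbol and all found in the liver tables, which hold 35274 gene identifiers for a diet study and 35711 for a strain panel. They comprise the receptor gene Ppara itself, the carnitine shuttle (Cpt1a, Cpt2, Slc25a20), fatty acid activation and binding (Acsl1, Fabp1), the mitochondrial beta-oxidation enzymes and their electron acceptors, peroxisomal enzymes, acyl-CoA thioesterases, the omega-hydroxylases Cyp4a10 and Cyp4a14, and 3 other genes that PPARA is known to control (Pdk4, Vnn1, Bdh1). All 34 passed the filter on low counts in both tables, so no member was left out.

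Liver RNA was sequenced from 130 mice, all labelled male. In the diet study, C57BL/6J mice received chow, a diet labelled sufficient iron at 50 ppm, a diet labelled elevated iron at 500 ppm, 2% carbonyl iron (20000 ppm), or 2% carbonyl iron with cellulose as the fibre, with 3 mice each. The labels give neither the iron content of the chow nor the age, the feeding time or the hour of killing of these mice. They name a fibre source for the cellulose diet only. The panel comprised 115 mice of 114 inbred strains, each kept 4 weeks on chow and then 6 weeks on high iron, labelled as 2% carbonyl iron: 56 libraries of BXD, 20 of AXB/BXA, 4 of BXH and 3 of CXB recombinant inbred strains, and 32 of other inbred strains. Each strain was 1 mouse, except 129X1/SvJ with 2, so a value for 1 strain has no replicate error.

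PPARA is a receptor for fatty acids that binds DNA together with RXR and raises the transcription of genes for the uptake, activation and oxidation of fatty acids, above all in the fasted liver. Fatty acids are activated to acyl-CoA, enter mitochondria through the carnitine shuttle and are shortened there in repeated cycles of dehydrogenation, hydration, a further dehydrogenation and thiolysis. Peroxisomes shorten very long chains, and CYP4A enzymes oxidize fatty acids from the far end of the chain.

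PPARA with RXR is known to bind a direct repeat of AGGTCA with 1 base between the repeats. The letters AGGTCANAGGTCA were therefore searched on both strands of the RefSeq promoter windows of GRCm38.p6, from 250 bases before to 50 bases from each start, allowing up to 2 mismatches in the 12 fixed bases. A window was held for 29 members, and 4 of them (13.8%) had a match, as had 4.4% of 27025 genes. With at most 1 mismatch the only member was Fabp1, against 0.644% of genes. The stretches around these matches are shown because they are where the members' promoters carry letters close to the receptor's motif, 5′ to 3′ on the strand of the gene, with the match in capitals. The Fabp1 stretch is chr6:71199752-71199826 (plus strand), and its match lies 67 to 55 bases before the start, on the opposite strand, with 1 mismatch. That of Acot4 is chr12:84038306-84038378 (plus strand), with a match on the opposite strand 13 to 1 bases before the start and 2 mismatches. The Etfa stretch is chr9:55512278-55512380 (minus strand), with a match on the opposite strand 77 to 65 bases before the start and 2 mismatches. In Slc25a20 the match itself is shown, chr9:108662142-108662154 (plus strand), 7 to 19 bases after the start on the strand of the gene, with 2 mismatches.
Fabp1: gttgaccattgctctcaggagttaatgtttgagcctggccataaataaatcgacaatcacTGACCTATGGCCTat
Acot4: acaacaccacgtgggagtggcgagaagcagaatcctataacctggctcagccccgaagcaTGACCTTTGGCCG
Etfa: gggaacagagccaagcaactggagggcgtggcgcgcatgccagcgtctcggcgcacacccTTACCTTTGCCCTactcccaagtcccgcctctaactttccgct
Slc25a20: AGGTGAAAGGTCG

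A match of letters is a description of these windows and does not show binding. Fabp1, Etfa and Slc25a20 are among the members that fell on 2% iron, and Acot4 is not.

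The total count per library lay between 10.42 M and 20.36 M for the diets and between 9.408 M and 20.57 M for the panel. Marker genes of hepatocytes summed to between 80990 and 102900 CPM (counts per 1e6 counts of the library) in the diet study, and pancreas markers to under 1 CPM. Markers of Kupffer cells and other macrophages were higher on 2% iron: all 7 of 7 rose against 50 ppm, where 8.52% of all genes rose, and their sum went from 119.9–202.4 CPM in the 50 ppm mice to 504.1–533.6 CPM in the 2% iron mice. The summed erythroid markers went from 67.95–109.4 to 320.1–475.7 CPM. The hepatocyte markers themselves summed to 98790–101500 CPM in the 2% iron mice, all above the 83980–94460 CPM of the 50 ppm mice. In bulk liver, fewer hepatocytes and less RNA per hepatocyte cannot be told apart, and the part of these markers in the results was not tested.

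On 2% iron most of the beta-oxidation genes fell against the 50 ppm diet. Of the 34 members 19 fell at an adjusted p under 0.05 and none rose, where 7.17% of all 13560 genes tested fell (edgeR's quasi-likelihood test, Benjamini-Hochberg over all genes). At an unadjusted p under 0.05, 24 members were lower and none higher, where 4089 of the 13560 genes passed in either direction. DESeq2 called the same 19, and 2244 of 13544 genes in either direction. The median log2 change of the members was -0.49, against 0.01 for all genes, and 31 of the 34 estimates were below 0. In 23 members all 3 iron-fed mice lay below all 3 control mice, which was so for 17.7% of all genes. Among the members that fell, the fold differences of mean CPM ran from 1.27-fold for Etfa to 3.68-fold for Acaa1b.

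**Figure D1:**
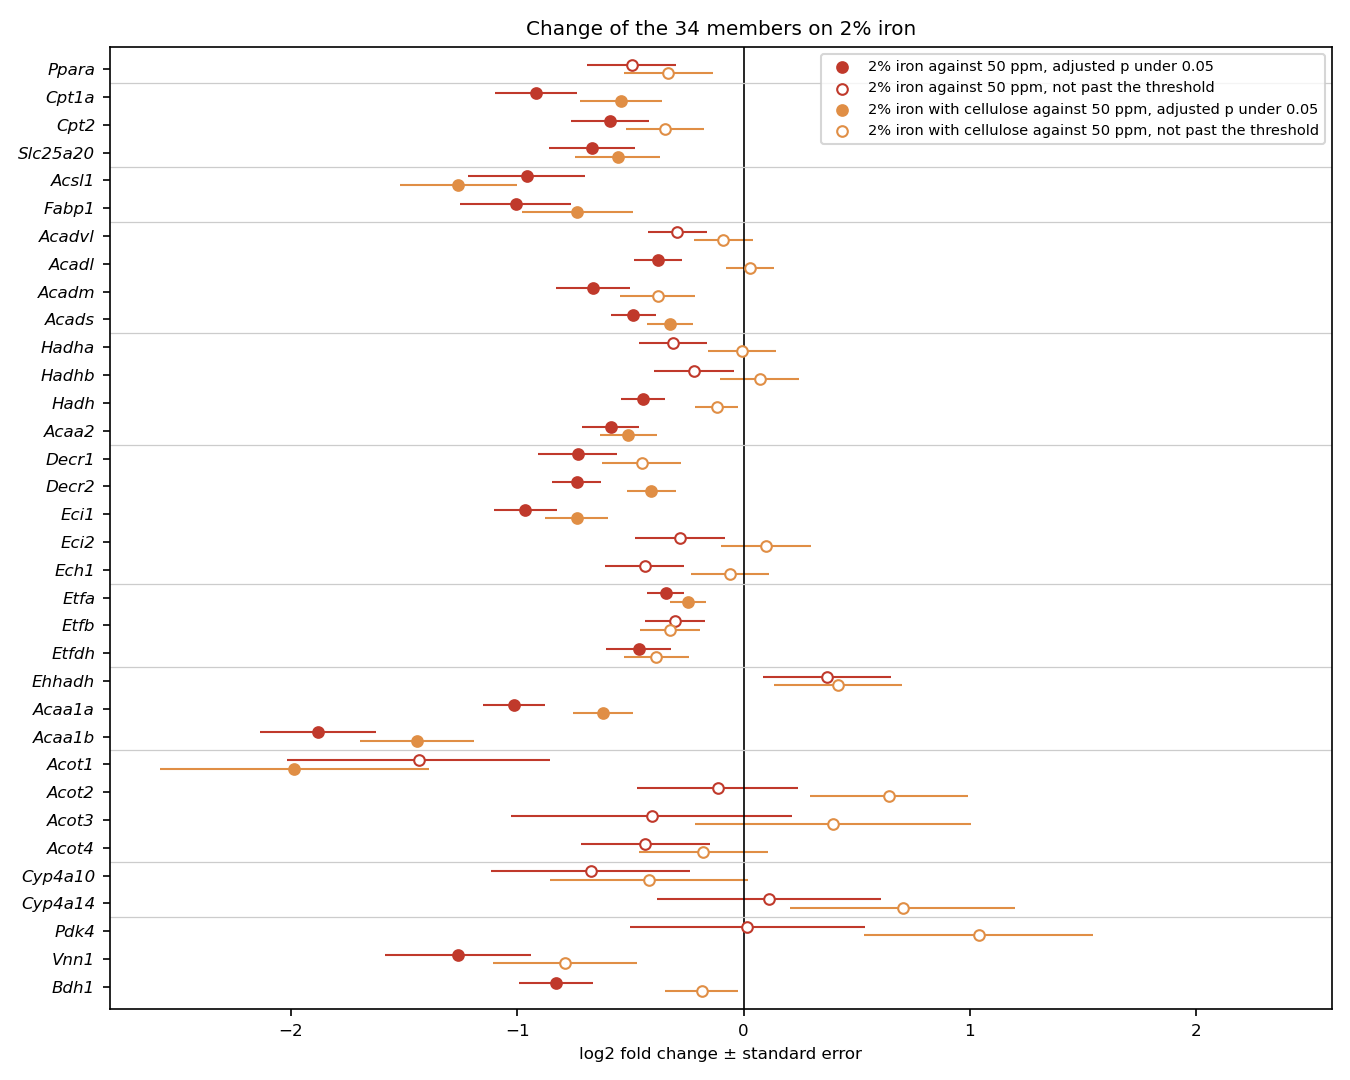
Log2 fold change with its standard error (horizontal axis) of each of the 34 members (vertical axis, ordered by role) on 2% iron (red) and on 2% iron with cellulose (orange), each against the same 3 mice on 50 ppm. Filled points have an adjusted p under 0.05; Acaa1b lies lowest of the red points at -1.88, and Ehhadh, Cyp4a14 and Pdk4 lie at or right of 0.

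The receptor's own transcript was lower on 2% iron without passing the test. Ppara was at 215.9, 183.6 and 203.4 CPM in the 50 ppm mice and at 148.6, 152.9 and 126.6 CPM in the 2% iron mice. The groups did not overlap, but the log2 difference of -0.49 ± 0.20 (SE) had an adjusted p of 0.107 in edgeR's quasi-likelihood test. The mice on 500 ppm, with 189.3 ± 16.5 CPM (SD, n = 3), overlapped those on 50 ppm, and chow ranged widely, from 115.2 to 237.2 CPM. Fitted with the 50 ppm and 2% iron mice alone, the test did call Ppara lower.

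All 3 genes of the carnitine shuttle fell. Cpt1a, whose product at the outer mitochondrial membrane controls the entry of long-chain fatty acids, stood at 766.1, 735.0 and 738.2 CPM on 50 ppm and at 430.5, 416.7 and 338.3 CPM on 2% iron. That is a 1.89-fold lower mean with no overlap, a log2 change of -0.92 ± 0.18 (adjusted p = 0.00519, edgeR). Slc25a20, the carrier across the inner membrane, fell by 0.67 on the log2 scale (adjusted p = 0.0290, edgeR), and Cpt2, which returns the chain to coenzyme A in the matrix, fell by 0.59 (adjusted p = 0.0329, edgeR).

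Both genes of activation and binding fell to about the same degree. Fabp1, the liver fatty acid-binding protein, was by far the most abundant member per transcript length, at 6000 ± 380 TPM (SD, n = 3) on 50 ppm, with Acaa1b following at 564 TPM. Its counts were 2477, 1992 and 2137 CPM on 50 ppm and 1170, 1246 and 871.6 CPM on 2% iron. Every iron-fed mouse was below every control, with a log2 change of -1.01 ± 0.25 (adjusted p = 0.0145, edgeR). Acsl1, the acyl-CoA synthetase for long chains, went from 1934, 1362 and 1429 to 1026, 827.4 and 577.7 CPM, also without overlap (log2 change -0.96 ± 0.26, adjusted p = 0.0230, edgeR).

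**Figure D2:**
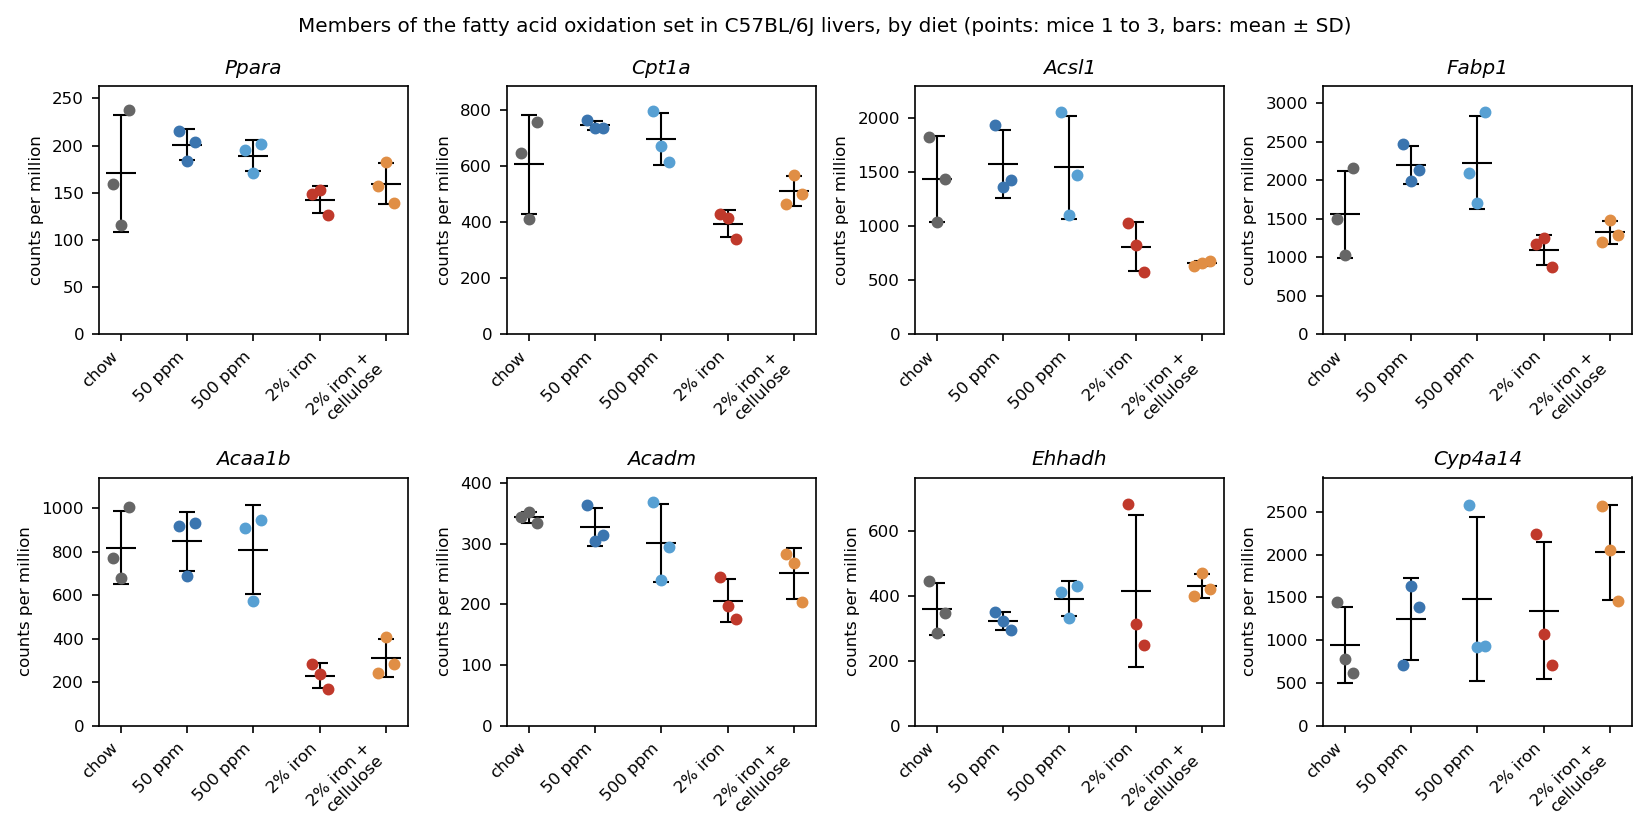
CPM (vertical axes, starting at 0) of 8 members in the 5 diet groups of C57BL/6J mice, with points for the 3 mice and bars for the mean ± SD. Acaa1b lies between 170 and 283.3 CPM on 2% iron and at or above 689.2 CPM on 50 ppm, while the 3 mice of Ehhadh and Cyp4a14 on 2% iron spread over the range of the other diets or past it.

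The estimates of the mitochondrial chain-shortening enzymes were smaller than those of most shuttle and binding genes, a difference that was not tested, and not all of them passed the test against 50 ppm. Of the acyl-CoA dehydrogenases, which take chains of decreasing length, Acadm (medium chain, log2 change -0.67), Acads (short chain, -0.49) and Acadl (long chain, -0.38) fell, whereas Acadvl (very long chain) was at -0.29 with an adjusted p of 0.145 in edgeR. Hadh, the hydroxyacyl-CoA dehydrogenase of the matrix, went from 275.1, 241.1 and 269.6 to 198.5, 193.1 and 185.3 CPM, a small change in which both groups were tight and apart (log2 change -0.45 ± 0.10, adjusted p = 0.00785, edgeR). Acaa2, the mitochondrial thiolase, fell by 0.59. Hadha and Hadhb encode the subunits of the trifunctional protein and lie side by side on chromosome 5 in opposite directions. They were at -0.31 and -0.22 without passing the test (adjusted p = 0.180 and 0.434, edgeR).

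Among the auxiliary enzymes for unsaturated chains, 3 of 5 fell. Eci1, the mitochondrial enoyl-CoA isomerase, stood at 109.3, 87.38 and 94.22 CPM on 50 ppm and at 54.61, 49.69 and 44.80 CPM on 2% iron, a 1.95-fold lower mean with no overlap (adjusted p = 0.000944, edgeR). Decr2, the peroxisomal dienoyl-CoA reductase, fell by 0.74 and its mitochondrial counterpart Decr1 by 0.73. Eci2 and Ech1 were at -0.28 and -0.44 and did not pass the test (adjusted p = 0.371 and 0.108, edgeR). Of the electron transfer genes, Etfa (-0.34) and Etfdh (-0.46) fell, and Etfb was at -0.30 with an adjusted p of 0.138 in edgeR.

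The peroxisomal members parted ways. Acaa1b, a peroxisomal thiolase at chr9:119148023-119157093 (GRCm38), showed the largest change of all members: 917.8, 689.2 and 931.3 CPM on 50 ppm against 283.3, 236.2 and 170.0 CPM on 2% iron. The groups lay far apart, and the log2 change was -1.88 ± 0.26 (adjusted p = 0.000649, edgeR). Its near copy Acaa1a fell by 1.01 (adjusted p = 0.000599, edgeR). Of the 31-base words of the Acaa1b transcripts, 50.05% also occur in other genes, most of them in Acaa1a, so reads of these genes may have been divided between them by the authors' quantification. Ehhadh, the peroxisomal bifunctional enzyme, did not follow. It was at 351.5, 323.1 and 294.2 CPM on 50 ppm and at 684.7, 314.3 and 250.6 CPM on 2% iron, where mouse 1 lay above and the other mice near or below the controls (log2 difference 0.37 ± 0.28, adjusted p = 0.413, edgeR).

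No thioesterase and no omega-hydroxylase passed the test against 50 ppm with edgeR at the threshold, although Acot1 had a large estimate. Acot1, a cytosolic acyl-CoA thioesterase, was at 74.63, 66.21 and 76.82 CPM on 50 ppm and at 48.81, 25.07 and 6.486 CPM on 2% iron. The groups did not overlap, but the iron-fed mice spread over several fold (log2 difference -1.44 ± 0.58, adjusted p = 0.112, edgeR). Acot2, Acot3 and Acot4, its neighbours on chromosome 12, were at -0.11, -0.40 and -0.43. Words of the Acot2 transcripts are shared with other genes at 37.8%, most of them with Acot1. Cyp4a14, a textbook PPARA target, was at 705.7, 1633 and 1392 CPM on 50 ppm and at 2243, 1075 and 709.9 CPM on 2% iron. These ranges overlapped, and the log2 difference was 0.11 ± 0.49. Cyp4a10 was at -0.68 ± 0.44 (adjusted p = 0.324, edgeR).

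Of the 3 other targets, Vnn1 and Bdh1 fell and Pdk4 did not. Vnn1, the pantetheinase that releases pantothenic acid, was at 88.30, 102.9 and 84.03 CPM on 50 ppm and at 49.47, 42.40 and 22.96 CPM on 2% iron, 2.40-fold lower in the mean (adjusted p = 0.0183, edgeR). Bdh1, the mitochondrial enzyme that makes beta-hydroxybutyrate, went from 234.8, 176.5 and 226.8 to 118.7, 130.4 and 110.3 CPM, again without overlap (log2 change -0.83 ± 0.16, adjusted p = 0.00485, edgeR). Pdk4, the kinase that shuts pyruvate dehydrogenase, ranged from 10.86 to 22.33 CPM on 50 ppm and from 8.960 to 27.26 CPM on 2% iron.

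Within each diet group 1 mouse stood lowest for most members, above all on 2% iron and on 500 ppm. On 2% iron, mouse 1 was the highest of the 3 for 31 of 34 members and mouse 3 the lowest for 34 of 34. On 500 ppm, mouse 2 was the lowest for 30 members. The order was looser in the other groups: mouse 2 was the lowest for 26 members on chow, and mouse 3 for 23 on 2% iron with cellulose. On 50 ppm the lowest mouse was split 3, 19 and 12 over mice 1, 2 and 3, and the highest was mouse 1 for 26 members. On chow the highest was mouse 1 for 15 members and mouse 3 for 14. The summed TPM of the members was 8965, 7962 and 5403 in the 2% iron mice against 11820, 11490 and 12520 in the 50 ppm mice. Genes of the fed and fasted state, taken as a list of 12, summed to 3845, 6597 and 7728 CPM in the same 2% iron mice, in the reverse order. The part of feeding state in the differences was not tested.

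How many members fell depended on single mice. Without mouse 3 of the 2% iron group, or without mouse 1 of the 50 ppm group, 9 members were called lower in place of 19. Those 9 were Acaa1a, Acaa1b, Acaa2, Acads, Bdh1, Cpt1a, Decr2, Eci1 and Hadh, and the same 9 were called lower with any of the 6 mice left out and under every other processing alternative tried. The remaining 10 (Acadl, Acadm, Acsl1, Cpt2, Decr1, Etfa, Etfdh, Fabp1, Slc25a20 and Vnn1) passed in the full set and lost the call with mouse 3 of the 2% iron group left out.

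The same direction was seen against the other diets without added 2% iron. Against 500 ppm, 16 members fell (4.75% of all genes fell), with a median of -0.54. Leaving out 1 mouse moved this count to between 4 (without mouse 3 of the 2% iron group) and 19 (without mouse 2 of the 500 ppm group). It was 7 without mouse 2 of the 2% iron group, 6 without mouse 1 of the 500 ppm group and 5 without its mouse 3. Against chow, 15 members fell, where 10.9% of all genes fell, with a median of -0.43, and without mouse 3 of the 2% iron group the count was 9, and 10 without chow mouse 1. Etfb was called lower against chow (log2 change -0.51, adjusted p = 0.0134, edgeR). Bdh1, Fabp1 and Vnn1 were not called against chow, where their means of 155.3, 1561 and 49.37 CPM were nearer to those on 2% iron. These comparisons use the same 3 mice on 2% iron.

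Between the diets without 2% iron no member passed the test. For 500 ppm against 50 ppm edgeR called 0 of 34 members and 0% of all genes. An unadjusted p under 0.05 was found for 0 members and for 428 of 13560 genes. DESeq2 also called 0 members, and 2 of 13544 genes. The median log2 difference of the members was -0.06. For chow against 50 ppm edgeR called 0 members, where 0.391% of all genes were called. Here 2 members and 1408 of 13560 genes had an unadjusted p under 0.05. DESeq2 called 0 members and 147 of 12756 genes. Here the median was -0.11, and the 3 chow mice spread widely, for example from 413.0 to 759.3 CPM for Cpt1a. With 3 mice a group, these counts do not show that the diets act alike.

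With cellulose as the fibre source, 12 of 34 members fell on 2% iron against 50 ppm, where 14.3% of all genes fell. None rose, where 15.4% of all genes rose. The median log2 change was -0.33, and 8 of the 34 estimates were above 0. Of these, Ehhadh was called higher when only these 2 groups were fitted (0.42 ± 0.11, adjusted p = 0.0258, edgeR), and Pdk4 was called higher without cellulose mouse 2 (1.42 ± 0.46, adjusted p = 0.0420, edgeR). Leaving out mouse 1 of the 50 ppm group took the count of members that fell to 5, and leaving out mouse 1 or mouse 3 of the cellulose group took it to 7 or 6. Acaa1b fell by 1.44 (adjusted p = 0.00114, edgeR) and Acsl1 by 1.26 (adjusted p = 0.00303, edgeR), and Acsl1 lay at 634.6, 658.0 and 679.3 CPM, all under the lowest 50 ppm mouse. Acot1, which had missed the threshold on the other 2% iron diet, fell by 1.98 here (adjusted p = 0.0228, edgeR), with 21.09, 14.73 and 19.10 CPM. Hadh, at 254.4, 257.2 and 211.9 CPM, and Bdh1, at 175.0, 221.6 and 164.8 CPM, overlapped the 50 ppm mice and were not called.

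The direct comparison of the 2 iron diets showed estimates above 0 for 31 of 34 members with cellulose, but none was called by edgeR. The median log2 difference was 0.28, and edgeR called 0 members (0.0811% of all genes). An unadjusted p under 0.05 was found for 7 members, all higher with cellulose, and for 1757 of 13560 genes in either direction. DESeq2 called 3 of these members higher (Acadl, Bdh1 and Hadh), and 224 of 11706 genes in either direction. The smallest adjusted p-values in edgeR belonged to Bdh1 (log2 difference 0.64, adjusted p = 0.142) and Acadl (0.41, adjusted p = 0.144). In 7 members all 3 cellulose mice lay above all 3 mice of the other 2% iron diet, whose fibre is not named, as in 8.08% of all genes. Whether the members fell less with cellulose was therefore not settled by edgeR at 3 mice a group. Both contrasts with 50 ppm share the same 3 controls.

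Other genes of the pathway, taken from lists chosen with knowledge of earlier results, moved in the same direction where they passed the test, with exceptions. In peroxisomal oxidation 9 of 15 tested genes fell on 2% iron against 50 ppm and none rose, beside 7.17% and 8.52% of all genes. They included Crot, which hands shortened chains to carnitine (log2 change -1.13 ± 0.25), Phyh (-0.85), which acts on branched chains, and Scp2 (-0.85). In the uptake and activation list 7 of 15 fell, among them the intestinal-type binding protein Fabp2 (-1.16), the acyl-CoA synthetases Slc27a2 (-1.02) and Acsm5 (-0.91), and Fabp4, the binding protein of adipocytes and macrophages, rose by 1.44.

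Of a list of further genes taken as PPARA targets 27 were tested. In it 9 fell and 1 rose, beside the same 7.17% and 8.52% of all genes. The part of PPARA in these changes was not tested. The largest changes in the list were those of Cyp4a12b (-4.05 ± 0.51, adjusted p = 0.000489, edgeR) and Cyp4a12a (-3.93 ± 0.42). These are near-identical genes whose reads may be divided between them. Aldh3a2 (-1.37) and Retsat (-1.27) followed. In ketone body metabolism 4 of 7 fell, including Bdh2 (-1.42) and Acat1 (-0.56), while Oxct1 rose by 0.74, an enzyme of ketone use that the hepatocyte does not normally express. Around malonyl-CoA, the inhibitor of Cpt1a, Acaca rose by 1.30 and Prkaa1 by 0.44, and Mlycd, which removes malonyl-CoA, fell by 0.50. Of 17 regulators 1 rose and 2 fell, beside 8.52% and 7.17% of all genes, and the median of the list was 0.06. Ppard rose by 0.88 and Esrra and Sirt3 fell by 0.38 and 0.36.

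Of the lists of other cell types and states, those of macrophages and erythroid cells moved most. Over all genes, edgeR called 2127 of 13560 in either direction. The endothelial, hepatocyte, clock and feeding lists had shares near that. The macrophage list had a median log2 change of 1.62, with Marco (3.23), Cd5l (1.77), Vsig4 (1.73) and Clec4f (1.62) among the genes that rose. Of the 5 erythroid genes tested, the globin genes Hbb-bs (3.83), Hba-a2 (3.75), Hba-a1 (3.66) and Hbb-bt (3.55) rose, though Hba-a1 and Hba-a2 encode the same chain and their reads may be divided, and Alas2 fell by 1.51. Stab2 rose by 0.80 among 6 endothelial genes, and Apoa1 fell by 0.86 among 8 hepatocyte genes, whose median was -0.01. In the clock list Nr1d1 fell by 1.24 and Hlf by 0.64, 2 of 15 genes, and in the feeding list Igfbp1 rose by 1.47 and Pck1 fell by 0.65, 2 of 12. The part of these cell types and states in the members' changes was not tested. No gene of the pancreas list passed the filter, and the stellate, cholangiocyte and lymphocyte and neutrophil lists, without a gene called by edgeR, had medians of 0.04, -0.43 and 0.77.

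Across the 114 strains on 2% iron the median member varied more than the median gene. The SD of log2 CPM over strains ran from 0.18 for Etfa to 1.88 for Acot3, with a median of 0.45 against 0.32 over 12287 genes. For all 34 members the spread between strains exceeded the spread between mice of 1 diet group of C57BL/6J, as for 95.1% of all genes. The tightest were Etfa, with 2.08-fold between the highest and the lowest strain, and Etfb, with 2.86-fold. The widest were Acot3 (498-fold, from 0.840 to 418.5 CPM), Acaa1b (231-fold), Pdk4 (210-fold), Cyp4a10 (209-fold) and Cyp4a14 (178-fold).

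**Figure D3:**
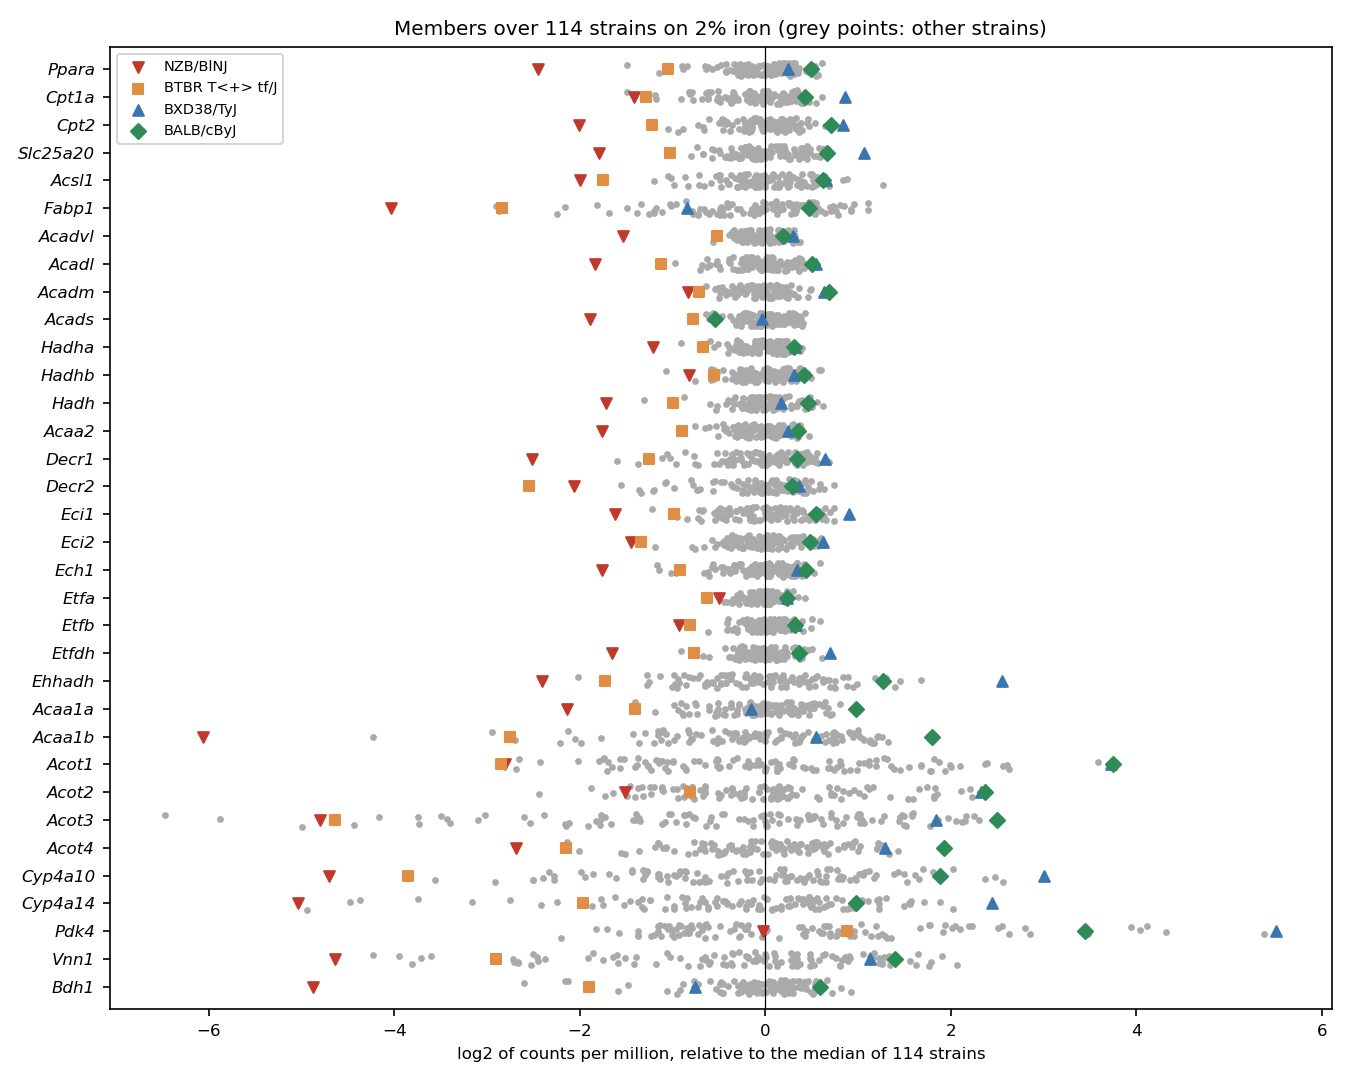
Log2 CPM of each member (rows) relative to the median of the 114 panel strains (horizontal axis), with grey points for strains and coloured symbols for 4 named strains. NZB/BlNJ lies lowest for 26 of the 34 members, and BXD38/TyJ is highest for 10.

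A few strains stood at the ends for many members at once. These strains were picked after their values were seen, and each is 1 mouse. NZB/BlNJ was the lowest strain for 26 members and among the 5 lowest for 33, the exception being Pdk4. Its Ppara was at 35.18 CPM, where the median of the strains was 192.5 CPM and the next lowest strain, BXD74/RwwJ, had 68.34 CPM. In NZB/BlNJ, Acaa1b was at 5.348 CPM (median 356.6 CPM), Fabp1 at 80.98 CPM (median 1324 CPM) and Bdh1 at 7.270 CPM (median 213.7 CPM). BTBR T<+> tf/J was among the 5 lowest for 28 members, BXD27/TyJ for 19 and BXD74/RwwJ for 16.

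Lymphocyte, neutrophil and erythroid markers were high in several of the same mice. In NZB/BlNJ the lymphocyte and neutrophil markers summed to 174.0 CPM, the highest of the 114 strains (median 11.37 CPM), and the erythroid markers to 1574 CPM (median 183.6 CPM). In BTBR T<+> tf/J the erythroid sum of 2475 CPM was the highest of all strains, and its hepatocyte markers were the second lowest at 73970 CPM. The hepatocyte markers of NZB/BlNJ, at 110900 CPM, stood at the median of the strains. Those of BXD27/TyJ and BXD74/RwwJ lay above it, at 127500 and 135500 CPM. Endothelial markers summed to 543.2 CPM in NZB/BlNJ and 534.0 CPM in BTBR T<+> tf/J (median 393.6 CPM). The feeding-state genes of NZB/BlNJ summed to 2661 CPM, the third lowest of the strains (median 4680 CPM). In BTBR T<+> tf/J, BXD27/TyJ and BXD74/RwwJ they summed to 3552, 5440 and 4429 CPM. The part of these markers and of feeding state in the low members was not tested.

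At the upper end, BXD38/TyJ was highest for 10 members and among the 5 highest for 18. Its Cyp4a14 was at 4413 CPM, Ehhadh at 1905 CPM and Pdk4 at 391.4 CPM, where the median strain had 810.8, 324.0 and 8.599 CPM. Its Fabp1 (739.2 CPM, median 1324 CPM) and Bdh1 (126.8 CPM, median 213.7 CPM) lay below the median strain, as did Acaa1a and Acads. Its list of feeding-state genes summed to 10290 CPM, the second highest of the strains (median 4680 CPM), and the part of feeding state was not tested. BXH8/TyJ was among the 5 highest for 17 members and BALB/cByJ for 15. BALB/cByJ held the highest values of the thioesterases Acot1 (164.9 CPM), Acot2 (88.66 CPM), Acot3 (418.5 CPM) and Acot4 (525.7 CPM), and of Acaa1a (313.9 CPM), Acaa1b (1237 CPM) and Acadm (416.9 CPM). Its Acads went the other way, at 74.49 CPM, where the median strain had 108.8 CPM.

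Over the strains, most members went with the level of Ppara. Of 32 members tested, 31 had a positive Pearson correlation with Ppara at an adjusted p under 0.05 (permutation test with 100000 resamples, Benjamini-Hochberg over 12286 genes), where 25.2% of all genes did. The median r of the members was 0.65, against -0.02 for all genes. Pdk4 was the exception, with r = -0.10 (adjusted p = 0.350, permutation test, 114 strains). The largest r belonged to Acaa1b at 0.77 (rho 0.65), Bdh1 at 0.75 (rho 0.52), Cpt2 at 0.74 (rho 0.54) and Cpt1a at 0.74 (rho 0.70). Without the 2 strains farthest from the median of Ppara, BXD74/RwwJ and NZB/BlNJ, 30 members were called and the r of Acaa1b was 0.68. The number of calls thus did not rest on those 2 strains alone. By Spearman's rho 30 were called. The smallest called r was that of Cyp4a14 at 0.31, which was 0.17 without those 2 strains (adjusted p = 0.141, permutation test) and 0.20 as rho (adjusted p = 0.0742, permutation test). Without the 4 strains with the lowest members, 30 of 32 were called, with a median r of 0.49. Each pair of values comes from the same library, so errors of a library are shared between the members and Ppara.

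Hadh fell into separate levels over the strains and is not given a pooled r. A low group of 5 strains (BTBR T<+> tf/J, BXD24/TyJ-Cep290<rd16>/J, BXD27/TyJ, BXH2/TyJ and NZB/BlNJ) lay between 76.3 and 136.6 CPM, and the other 109 between 166.4 and 386.1 CPM. Within those 109 strains Hadh and Ppara had r = 0.58 (p = 1e-05, the smallest that the permutations can give) and rho = 0.61.

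The relation to Ppara was also seen within families. In the BXD strains 25 of 31 members were called (7.94% of all genes; Bdh1 was left out because it falls into separate levels there), with a median r of 0.49, and 16 without BXD24/TyJ-Cep290<rd16>/J and BXD74/RwwJ. Among the other inbred strains 29 of 32 were called (19.6% of all genes), with a median r of 0.75, and 27 without KK/HlJ and NZB/BlNJ. In the AXB/BXA strains 8 of 32 were called (1.53% of all genes), although their median r was 0.56. None of these was called without BXA13/PgnJ and BXA26/PgnJ, and 20 strains give less precision than the larger families.

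**Figure D4:**
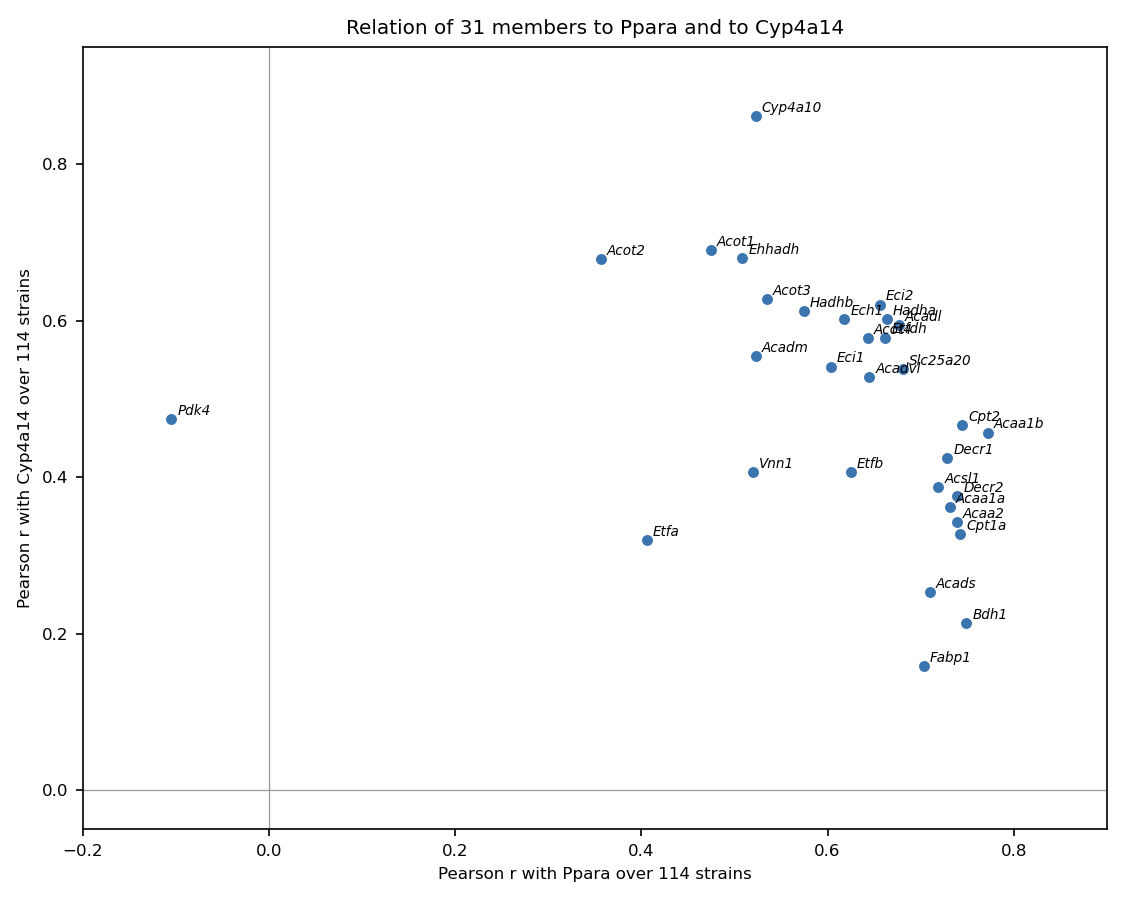
Pearson r of 31 members with Ppara (horizontal axis) and with Cyp4a14 (vertical axis) over the 114 strains. Cyp4a10 stands at 0.86 with Cyp4a14, Fabp1 and Bdh1 lie at the right and low with Cyp4a14, and Pdk4 lies alone to the left.

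The members related to Cyp4a14 were ordered differently. With Cyp4a14, 28 of 31 members had a called positive correlation (7.48% of all genes), with a median r of 0.53. The largest was that of Cyp4a10 (r = 0.86, rho = 0.88), followed by Acot1 (r = 0.69, rho = 0.78), Ehhadh (r = 0.68, rho = 0.71) and Acot2 (r = 0.68, rho = 0.73). Pdk4, which had no called relation with Ppara, had r = 0.47 with Cyp4a14. Fabp1 (r = 0.16), Bdh1 (r = 0.21) and Acads (r = 0.25) had no called relation with Cyp4a14 (adjusted p = 0.264, 0.118 and 0.0579, permutation test), while their r with Ppara was 0.70, 0.75 and 0.71. These orders were read after the values were seen, and the difference of 2 correlations was not tested. In the BXD strains 21 of 30 were called (3.43% of all genes), in AXB/BXA 7 of 31 (0.985% of all genes) and among the other inbred strains 1 of 31 (0.0244% of all genes), which was Cyp4a10. Within its 109 upper strains Hadh had r = 0.22 with Cyp4a14 (p = 0.0206, permutation test) and rho = 0.26. The AXB/BXA count was 0 without AXB19a/PgnJ and BXA12/PgnJ, and the count of the other inbred strains was 0 without NZB/BlNJ and SWR/J. Without the 4 strains with the lowest members, 23 of 31 were called.

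**Figure D5:**
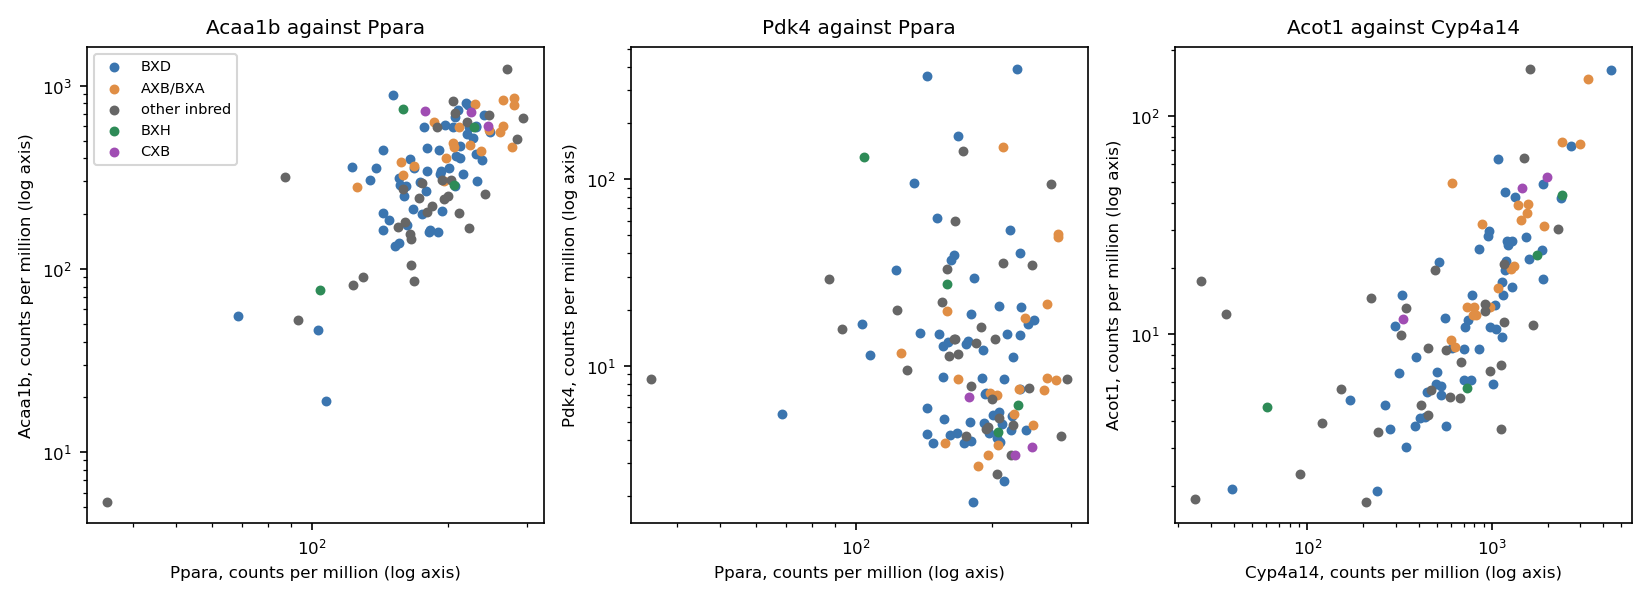
CPM in each of the 114 strains on log axes, with points coloured by family: Acaa1b against Ppara (left), Pdk4 against Ppara (middle) and Acot1 against Cyp4a14 (right). NZB/BlNJ, with Ppara at 35.18 CPM and Acaa1b at 5.348 CPM, lies far to the lower left in the first panel.

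The BXD strains, derived from C57BL/6J and DBA/2J, were compared with the AXB/BXA strains, derived from A/J and C57BL/6J. The substrains AXB19/PgnJ, AXB19a/PgnJ and AXB19b/PgnJ, and BXD48/RwwJ and BXD48a/RwwJ, were counted as separate strains. Of the members 7 were lower in BXD and none higher, where 5.02% of all 13794 genes tested were lower (edgeR's quasi-likelihood test). At an unadjusted p under 0.05, 18 were lower and none higher, where 3472 of the 13794 genes passed in either direction. DESeq2 called 7 members, and 1749 of 13794 genes in either direction. On log2(TPM + 1), limma called 5 members (Acads, Acadvl, Acot1, Cyp4a10 and Etfb), and 906 of 13794 genes in either direction. Ppara, Acadl and Etfdh were not called there. Ppara averaged 182.8 ± 38.2 CPM (SD, n = 56) in BXD and 218.9 ± 45.5 CPM (SD, n = 20) in AXB/BXA, a log2 difference of -0.26 ± 0.08 (adjusted p = 0.0289, edgeR). The others were Cyp4a10 (-0.82 ± 0.27, adjusted p = 0.0326, edgeR), Acadvl (-0.23), Acadl (-0.22), Acads (-0.21), Etfdh (-0.17) and Etfb (-0.14). In the parental strains, each 1 mouse, Ppara was at 195.8 CPM in C57BL/6J and 246.0 CPM in A/J, with DBA/2J between them. The family ranges overlapped widely.

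In the BXD family only Bdh1 fell into separate levels by a mixture of 2 normal distributions. BXD27/TyJ, BXD42/TyJ and BXD74/RwwJ lay between 47.8 and 76.7 CPM and the other 53 strains between 125.1 and 339.6 CPM. Both parents lay in the upper group, C57BL/6J at 208.5 CPM and DBA/2J at 282.2 CPM. On the scale log2(TPM + 1), Bdh1 did not separate.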

How the data were processed

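Liver mRNA of 130 mice labelled male was sequenced with a stranded kit, per the labels' protocols. Kallisto 0.46 and the mm10 build are named in the submitters' processing notes, without role or order. The authors deposited estimated (expected) counts per gene and TPM for the same mice, in separate tables for the diet study and the panel, which were never pooled in a test. The panel tables' name points to Ensembl release 97, and none is stated for the diet tables. No column lacked a sample.

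Symbols and coordinates came from GENCODE M21 (GRCm38), with 34924 of 35274 and 35691 of 35711 identifiers named. The planned test assumed whole counts, but 52.4% and 54.11% of nonzero values were not whole, so the deposited expected counts were rounded. Counts were normalized by TMM, filtered with filterByExpr and tested with edgeR 4.0.16 in R 4.3.3, with all 15 diet libraries in 1 fit. Calls were made at a Benjamini-Hochberg adjusted p under 0.05 over all genes tested, two-sided. CPM used TMM-scaled library sizes. Relations over strains used log2 CPM with a prior count of 2 and 100000 permutations, and were adjusted over all 12286 genes, not over the members as planned. Levels were called separate for a mixture with Ashman's D above 3, a BIC gain above 10 and at least 3 strains a level (scikit-learn 1.9.0). DESeq2 1.42.0, limma 3.58.1 on log2(TPM + 1), other scalings and filters, and leaving out each mouse were alternatives, as were leaving out BXD65/RwwJ and leaving out 500 ppm mouse 2 or the 4 strains with the lowest members, the last 2 chosen after seeing the data. The scripts were tested on simulated data.

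The members and all gene lists were chosen with earlier results of these data known. Named are all 34 members and, of each list, at most 4 called genes with the largest change on 2% iron against 50 ppm, of which some are not reported here; other names were chosen after values were seen and are marked. The labels do not say whether the mice of a diet shared a cage or batch, so p-values measure the spread between these mice. No pair of libraries of 1 diet agreed within sampling noise: their mean chi-square per gene was 15.5 to 69.3. The library of BXD65/RwwJ had a summed level of 4 Y-linked genes of 3.93 CPM, against 122 to 328 CPM in the other 114, and goes against its label of male.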

Additional observations from a re-analysis of the deposited data

Results flagged for a closer look

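Within the 4 BXH strains, 1 strain lay far from the other 3 for 3 of the 34 members. This was judged on log2 CPM, by its gap to the nearest strain as a share of the whole range. The shares were 0.851, 0.901 and 0.920, above Dixon's 95% limit for 4 samples. They apply to log2 CPM and not to the CPM printed below, on which no share was taken. Cpt1a was at 401.4 CPM in BXH2/TyJ, with the others at 655.5 to 714.5 CPM. Bdh1 was at 35.16 CPM in BXH2/TyJ, with the others at 211.1 to 256.8 CPM, and BXH2/TyJ also belonged to the low group of Hadh. Eci2 was at 177.5 CPM in BXH14/TyJ, with the others at 283.2 to 294.9 CPM. Chance gives such a gap in about 1 in 20 groups, and each strain is 1 mouse.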

How the results depend on the processing

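No member changed direction with a call under any alternative tried. The members called on 2% iron against 50 ppm, 19 in edgeR, were 11 by limma on log2(TPM + 1) and 11 on log2(TPM + 0.1). Against 500 ppm these settings gave 4 and 4, and a fit of only those groups 7. Against chow they gave 7 and 7, and for cellulose against 50 ppm 3 and 3, with a median of -0.12 on log2(TPM + 1). Of all 13560 genes, limma on log2(TPM + 1) called 1208 against 50 ppm and 910 against 500 ppm, in either direction. It called 1945 against chow and 2657 for cellulose against 50 ppm. For cellulose the share of members called was thus below that of all genes. On that scale the median of all genes moved to 0.10 against chow and to 0.11 for cellulose against 50 ppm. DESeq2 called 3 members and 224 of 11706 genes between the iron diets. The causes of these differences were not tested.

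Leaving out 1 mouse in turn moved the count of called members to 9 to 21 for 2% iron against 50 ppm, 4 to 19 against 500 ppm, 9 to 19 against chow, 5 to 14 for cellulose against 50 ppm and 0 to 1 between the iron diets, and left it at 0 for 500 ppm and for chow against 50 ppm. The medians then ran from -0.70 to -0.42, from -0.71 to -0.36, from -0.58 to -0.37, from -0.39 to -0.25, from 0.15 to 0.44, from -0.12 to 0.06 and from -0.15 to -0.01. The median of 500 ppm against 50 ppm changed sign in this range, with no member called. Leaving out 500 ppm mouse 2, the deepest library, from the other contrasts kept all 19 calls against 50 ppm.

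Without the 2 strains farthest from the median, members related to Ppara numbered 16 in BXD and 0 in AXB/BXA, and those related to Cyp4a14 0 in AXB/BXA and 0 in the other inbred strains. By Spearman's rho the last 2 counts were 3 and 0. No BXD member fell into separate levels on log2(TPM + 1), a count of 0. No paired analysis was possible because the labels give no number that pairs mice across diets or strains. With 3 mice a diet and 1 mouse a strain, the number of mice limits these results, and no error can be given for 1 strain.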

Other observations

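Over all genes, the largest correlations with Ppara over the 114 strains were those of Fcgrt, the neonatal Fc receptor (r = 0.82), Nudt12 (r = 0.79), the acyl-CoA synthetase Slc27a2 (r = 0.78), Acad11, an acyl-CoA dehydrogenase (r = 0.78), and Adtrp (r = 0.77), with the member Acaa1b next (r = 0.77). For Cyp4a14 they were those of the member Cyp4a10 (r = 0.86), its neighbour Cyp4a31 (r = 0.79), the carnitine acetyltransferase Crat (r = 0.70), the member Acot1 (r = 0.69) and Lgals4 (r = 0.69). These genes were chosen after their values were seen and are given as a description. Cyp4a10 shares 44.9% of its 31-base words with other genes, most of them with Cyp4a32, so reads within the Cyp4a cluster may be divided.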
